A study of Mus musculus with 8 samples.

Results

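The 9 genes described here encode transcription factors and cofactors that act in the onset or upkeep of hematopoietic stem cells (HSCs): *Hlf*, *Mecom*, *Meis1*, *Mllt3*, *Prdm16*, *Erg*, *Lmo2*, *Tal1* and *Runx1*. They were chosen by name, with earlier results of these data known. All 9 were found once each among the 54532 genes of the processed table, and all 9 had enough reads to be among the 13560 genes tested. The libraries came from bone marrow of 8- to 12-week-old C57BL/6 mice with floxed *Zeb1* and the Mx1-Cre transgene (*Zeb1* fl/fl;Mx1-Cre+), in which injected pIpC had switched on Cre to delete *Zeb1*, a repressor of epithelial genes. LSK cells (lineage-negative, c-KIT+, SCA-1+), the marrow compartment of stem and multipotent progenitor cells, were sorted 14 days after the last pIpC dose into a fraction with EpCAM on its surface (*Zeb1*-/- EpCAM+, n = 4) and a fraction without it (*Zeb1*-/- EpCAM-, n = 4). Both fractions are labelled with the same deletion and the same pIpC exposure, and no library of control mice enters the comparison. Mx1-Cre answers to interferon and also deletes floxed genes outside the blood, including cells of the marrow niche. The comparison asks how these regulators differ between *Zeb1*-/- HSPCs (hematopoietic stem and progenitor cells) with and without EpCAM, the adhesion glycoprotein of epithelia.

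HLF is a PAR bZIP factor of long-term HSCs. MECOM (EVI1) and PRDM16 are related PR-domain zinc finger proteins that keep HSCs quiescent and in number, MEIS1 is a TALE homeodomain protein that binds DNA with PBX and HOXA partners, and MLLT3 (AF9) reads acylated histones and brings elongation factors and the H3K79 methyltransferase DOT1L to chromatin. ERG, LMO2, TAL1 and RUNX1 belong, with LYL1, GATA2 and FLI1, to the heptad, a group of factors that bind the same regulatory elements in blood stem and progenitor cells and are needed for the onset or upkeep of hematopoiesis.

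Promoter windows (250 bases before to 50 after a transcription start, from RefSeq on GRCm38.p6) were found for 8 of the 9 genes, 14 windows in all, and not for *Lmo2*. The windows of *Hlf*, *Mecom*, *Meis1* and *Prdm16* are printed because these 4 genes differed most between the fractions, and the 2 *Mecom* windows show 2 separate starts of that gene. All 4 genes lie on the minus strand, and the sequences run 5' to 3' along it. Capitals mark matches, on either strand, to 6 short motifs: the E-box CAGGTG that ZEB1 binds, the E-box CAGATG bound by TAL1, a motif of GATA factors spelled AGATAA, a motif of ETS factors spelled CCGGAA, a RUNX motif spelled TGTGGT and a MEIS motif spelled TGACAG.
Hlf, chr11:90390868-90391167: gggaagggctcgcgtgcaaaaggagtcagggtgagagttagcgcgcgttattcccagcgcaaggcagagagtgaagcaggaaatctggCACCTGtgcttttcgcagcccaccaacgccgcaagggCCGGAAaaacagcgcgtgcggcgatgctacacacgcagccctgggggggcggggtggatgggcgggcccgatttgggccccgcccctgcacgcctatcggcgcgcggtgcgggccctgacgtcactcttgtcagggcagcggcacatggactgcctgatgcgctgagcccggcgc
Mecom, upstream start, chr3:30509710-30510009: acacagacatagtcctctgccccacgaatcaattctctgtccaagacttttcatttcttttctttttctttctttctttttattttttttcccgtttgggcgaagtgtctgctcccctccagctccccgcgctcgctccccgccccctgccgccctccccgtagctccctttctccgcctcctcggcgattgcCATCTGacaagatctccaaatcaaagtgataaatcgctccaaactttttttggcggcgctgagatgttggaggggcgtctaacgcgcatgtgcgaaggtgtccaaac
Mecom, downstream start, chr3:30013155-30013454: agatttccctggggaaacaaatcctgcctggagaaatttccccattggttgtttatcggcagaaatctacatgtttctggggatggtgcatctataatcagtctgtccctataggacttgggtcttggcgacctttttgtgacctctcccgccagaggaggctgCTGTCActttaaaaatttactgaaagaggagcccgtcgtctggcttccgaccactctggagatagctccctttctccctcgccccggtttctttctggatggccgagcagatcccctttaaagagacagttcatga
Meis1, chr11:19018920-19019219: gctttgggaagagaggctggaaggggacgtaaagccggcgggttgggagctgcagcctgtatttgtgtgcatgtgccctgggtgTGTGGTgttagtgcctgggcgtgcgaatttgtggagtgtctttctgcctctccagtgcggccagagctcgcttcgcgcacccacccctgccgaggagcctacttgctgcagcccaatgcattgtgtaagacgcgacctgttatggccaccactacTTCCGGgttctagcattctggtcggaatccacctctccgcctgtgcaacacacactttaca
Prdm16, chr4:154636824-154637123: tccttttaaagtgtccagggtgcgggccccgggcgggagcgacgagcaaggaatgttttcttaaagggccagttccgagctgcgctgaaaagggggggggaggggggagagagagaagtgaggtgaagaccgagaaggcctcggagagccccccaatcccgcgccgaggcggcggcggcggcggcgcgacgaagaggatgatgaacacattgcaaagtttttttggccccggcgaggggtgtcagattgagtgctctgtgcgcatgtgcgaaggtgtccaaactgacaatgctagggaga
The capitals in the *Hlf* window are 1 ZEB1 E-box and 1 ETS match, those of *Mecom* 1 TAL1 E-box at the upstream start and 1 MEIS match at the downstream start, and those of *Meis1* 1 RUNX and 1 ETS match, while the *Prdm16* window held none of the 6 motifs. The ZEB1 E-box was in 3 of these 14 windows (*Hlf*, *Erg* and *Runx1*), against 20.2% of all 32851 windows of the reference. The TAL1 E-box was in 3 of the 14 windows (17.2% of all windows), GATA in 2 (11.2%), ETS in 3 (14.9%), RUNX in 2 (16.8%) and MEIS in 3 (19.2%). The median G+C content of the 14 windows was 51.4%, against 52.7% over all windows, and their median number of CpG dinucleotides was 15, against 7.

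Libraries held 14114491 to 17073546 reads counted on genes, and the totals of the fractions overlapped (two-sided exact permutation p = 0.114). At least 1 read was found for 19992 to 20310 genes in *Zeb1*-/- EpCAM+ libraries and for 18286 to 18746 genes in *Zeb1*-/- EpCAM- libraries (exact p = 0.0286, the smallest that 4 libraries against 4 allow). *Epcam* reached 161 to 234 CPM (counts scaled to the TMM-adjusted library size) in *Zeb1*-/- EpCAM+ libraries and 1.25 to 8.99 CPM in *Zeb1*-/- EpCAM- libraries. In *Zeb1*-/- EpCAM- replicates 1 to 4 it was counted 144, 51, 21 and 17 times, so replicate 1 was the highest of its fraction. *Zeb1* itself was higher in *Zeb1*-/- EpCAM+, at 14.8 to 23.7 CPM against 9.49 to 14.0 CPM without overlap (log2 fold change 0.72, edgeR adjusted p = 0.00599), and counts per gene do not separate the deleted allele from an intact one. Of the genes for the sorted surface markers, *Kit* ranged from 244 to 328 CPM in *Zeb1*-/- EpCAM+ and from 155 to 245 CPM in *Zeb1*-/- EpCAM-, and *Ly6a*, which encodes SCA-1, from 116 to 351 CPM and from 15.7 to 71.7 CPM. Together with *Cd34*, *Cd48* and *Flt3*, which mark subsets of LSK cells, these genes summed to 2138 to 2295 CPM and 1303 to 2095 CPM, with *Cd34* the highest by mean in both fractions (993 and 819 CPM). By edgeR's two-sided quasi-likelihood test with a Benjamini-Hochberg adjusted p under 0.05, 21.6% of the 13560 genes were higher and 20.8% were lower in *Zeb1*-/- EpCAM+ HSPCs, so a difference in either direction is common in this comparison. The balance of directions depends on the scaling: with TMM 2925 genes were higher and 2820 lower, with upper-quartile factors 3611 and 2077, and with library totals 3480 and 2066, and the last 2 scalings put the median log2 fold change of all genes at 0.11 instead of 0.02.

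Of the 9 regulators, 6 rose in *Zeb1*-/- EpCAM+ HSPCs (*Mecom*, *Hlf*, *Prdm16*, *Meis1*, *Erg* and *Lmo2*), and 3 did not pass the test (*Mllt3*, *Tal1* and *Runx1*). The number that fell was 0, also at an unadjusted p under 0.05 and with DESeq2 or limma, and these tools gave the same 6 genes as higher. Over the 9 genes the log2 fold changes had a median of 0.82, against 0.02 over all genes tested. The same 6 genes had 4 *Zeb1*-/- EpCAM+ values that all lay above the 4 *Zeb1*-/- EpCAM- values, a pattern found in this direction for 20.1% of all genes tested and in the other for 20%. Among the 836 tested genes to which the table gives a transcription factor family, 25.8% were higher and 7.89% lower, and their median log2 fold change was 0.18. In bulk libraries, a lower level from fewer cells of a type and from less RNA per cell cannot be told apart.

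**Figure D1:**
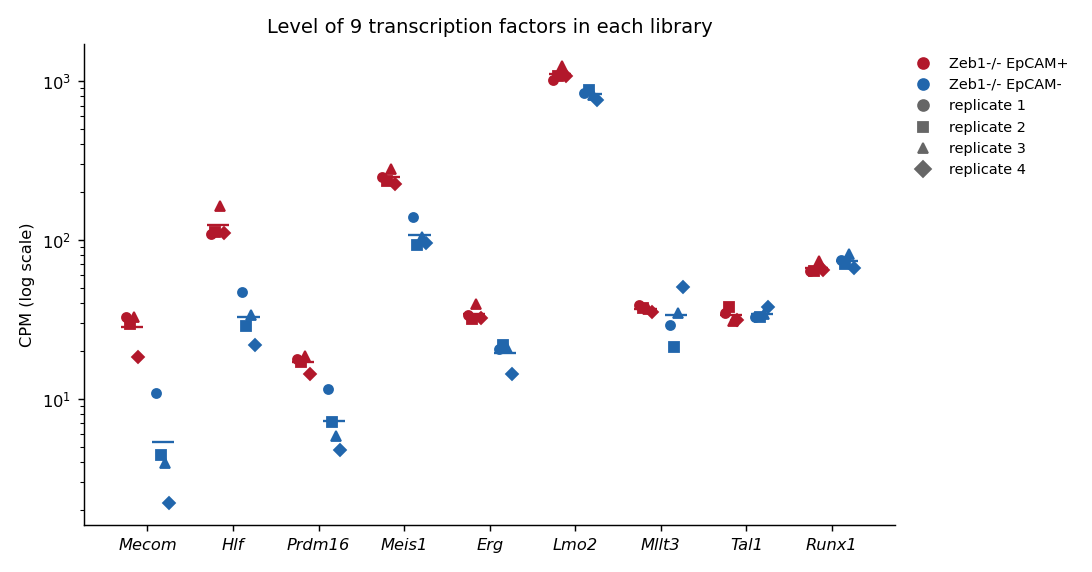
Level of each of the 9 genes in each library, in CPM on a log scale, with *Zeb1*-/- EpCAM+ in red and *Zeb1*-/- EpCAM- in blue, symbols for the replicate numbers and a bar at the mean of 4 libraries. The red and blue points are apart for *Mecom*, *Hlf*, *Prdm16*, *Meis1*, *Erg* and *Lmo2* and overlap for *Mllt3*, *Tal1* and *Runx1*.

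*Mecom* (ENSMUSG00000027684, chromosome 3, 29951296 to 30548008 of GRCm38, minus strand) showed the steepest difference of the 9. It was counted 500, 522, 588 and 284 times in *Zeb1*-/- EpCAM+ replicates 1 to 4 and 175, 60, 58 and 30 times in *Zeb1*-/- EpCAM- replicates 1 to 4. The lowest *Zeb1*-/- EpCAM+ library stood 1.69 times above the highest *Zeb1*-/- EpCAM- library after scaling, and replicate 1 stood above the other *Zeb1*-/- EpCAM- replicates. The means were 28.4 ± 6.82 CPM (SD, n = 4) and 5.38 ± 3.82 CPM (SD, n = 4), with a coefficient of variation of 70.9% among the *Zeb1*-/- EpCAM- libraries, the widest of any of the 9 genes in either fraction. The log2 fold change was 2.38 (SE 0.46, edgeR with Benjamini-Hochberg adjustment, adjusted p = 0.00517), and 283 of the 13560 genes tested had a larger fitted increase. Without *Zeb1*-/- EpCAM- replicate 1 it was 3.00.

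*Prdm16*, the nearest relative of *Mecom* in structure (ENSMUSG00000039410, chromosome 4, 154316125 to 154636873, minus strand), moved in the same direction by less. Its counts were 273, 302, 333 and 220 in *Zeb1*-/- EpCAM+ replicates 1 to 4 and 184, 96, 85 and 65 in *Zeb1*-/- EpCAM- replicates 1 to 4, so the fractions did not overlap and *Zeb1*-/- EpCAM- replicate 1 was again the highest of its fraction. The means were 16.96 ± 1.90 CPM and 7.29 ± 2.95 CPM (SD, n = 4 each), and the log2 fold change was 1.21 (SE 0.24, edgeR adjusted p = 0.00242). The log2 ratio of *Mecom* to *Prdm16* within a library, which no scaling of the libraries can change except through the added 1 CPM, averaged 0.68 ± 0.23 in *Zeb1*-/- EpCAM+ and -0.49 ± 0.33 in *Zeb1*-/- EpCAM- (SD, n = 4 each). The ratio was therefore 1.17 higher on the log2 scale in *Zeb1*-/- EpCAM+ HSPCs, with no overlap of the 4 and 4 values (two-sided exact permutation p = 0.0286, adjusted p = 0.0457 over 8 gene pairs).

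*Hlf* (ENSMUSG00000003949, chromosome 11, 90336536 to 90390895, minus strand) was counted 1661, 1976, 2944 and 1699 times in *Zeb1*-/- EpCAM+ replicates 1 to 4 and 749, 390, 496 and 297 times in *Zeb1*-/- EpCAM- replicates 1 to 4. Every *Zeb1*-/- EpCAM+ library was at least 2.32 times above the highest *Zeb1*-/- EpCAM- library in CPM, the widest gap among the 9 genes. The means were 124 ± 27.2 CPM and 32.8 ± 10.5 CPM (SD, n = 4 each), and the log2 fold change was 1.91 (SE 0.24, edgeR adjusted p = 0.000692). The related bZIP genes did not pass the test: *Tef* had a log2 fold change of 0.28 (adjusted p = 0.107), *Dbp* 0.54 (adjusted p = 0.0917) and *Nfil3*, the bZIP repressor that binds the same sites, -0.28 (adjusted p = 0.339). At an unadjusted p under 0.05, 1 of these 3 genes was higher (*Dbp*). By adjusted p, DESeq2 and limma gave 0. *Dbp* passed with the replicate number as a block (adjusted p = 0.0127), as did *Tef* with upper-quartile factors (adjusted p = 0.0458). Relative to *Tef* within a library, *Hlf* had a log2 ratio of 2.67 ± 0.17 in *Zeb1*-/- EpCAM+ and 1.03 ± 0.26 in *Zeb1*-/- EpCAM- (SD, n = 4 each), a difference of 1.64 (exact permutation p = 0.0286, adjusted p = 0.0457).

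*Meis1* (ENSMUSG00000020160, chromosome 11, 18879817 to 19018985, minus strand) was counted 3793, 4137, 5030 and 3479 times in *Zeb1*-/- EpCAM+ replicates 1 to 4 and 2228, 1255, 1526 and 1303 times in *Zeb1*-/- EpCAM- replicates 1 to 4, without overlap. The means were 247 ± 24.3 CPM and 108 ± 21.3 CPM (SD, n = 4 each), and the log2 fold change was 1.20 (SE 0.13, edgeR adjusted p = 0.000137). Of 8 tested TALE and Hoxa genes on the list of its DNA-binding partners and relatives, 3 were higher and 0 lower. The number lower was 0 also with DESeq2 and limma, and 1 at an unadjusted p under 0.05. The median log2 fold change was 0.48. Among all genes tested, 21.6% were higher and 20.8% lower. *Hoxa9*, the homeobox gene that acts with *Meis1*, rose from 46.9 ± 11.5 to 76.6 ± 8.78 CPM (log2 fold change 0.71, adjusted p = 0.00574) and *Hoxa10* from 5.78 ± 2.50 to 17.6 ± 2.41 CPM (1.60, adjusted p = 0.000937). *Meis3*, a close relative of *Meis1*, stood at 1.97 ± 0.42 CPM against 0.253 ± 0.18 CPM (log2 fold change 2.90, adjusted p = 0.000552). Its counts in *Zeb1*-/- EpCAM- replicates 1 to 4 were only 5, 2, 7 and 1. A filter of at least 10 counts in every library removed *Meis3*, and 2 of the 7 genes left on the list were then higher. *Meis2* and *Pknox2* had too few reads for a test. With the replicate number as a block, 6 of the 8 passed instead of 3, of which 5 were higher and 1 was lower (*Pbx4*, -0.28, adjusted p = 0.039), and 1 was also lower without *Zeb1*-/- EpCAM+ replicate 2.

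*Erg* (ENSMUSG00000040732, chromosome 16, 95359169 to 95586593, minus strand), the ETS factor of the heptad, was counted 516, 564, 702 and 500 times in *Zeb1*-/- EpCAM+ replicates 1 to 4 and 330, 294, 305 and 195 times in *Zeb1*-/- EpCAM- replicates 1 to 4. All *Zeb1*-/- EpCAM+ libraries lay above all *Zeb1*-/- EpCAM- libraries, and *Zeb1*-/- EpCAM- replicate 4 lay below the other 3 of its fraction. The means were 34.3 ± 3.34 CPM and 19.4 ± 3.39 CPM (SD, n = 4 each), and the log2 fold change was 0.82 (SE 0.13, edgeR adjusted p = 0.00076). *Fli1*, its closest relative and fellow heptad factor, rose by less, from 86.4 ± 12.4 to 109 ± 8.78 CPM with overlapping values (log2 fold change 0.33, adjusted p = 0.0226). Relative to *Fli1*, *Erg* had a log2 ratio of -1.63 ± 0.05 in *Zeb1*-/- EpCAM+ and -2.11 ± 0.26 in *Zeb1*-/- EpCAM- (SD, n = 4 each), a difference of 0.47 (exact permutation p = 0.0286, adjusted p = 0.0457).

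*Lmo2* (ENSMUSG00000032698, chromosome 2, 103957986 to 103981878, plus strand), the LIM-only bridge between TAL1 and its partners on DNA, changed least of the 6. Its counts were 15545, 18960, 22281 and 16654 in *Zeb1*-/- EpCAM+ replicates 1 to 4 and 13406, 11861, 11958 and 10325 in *Zeb1*-/- EpCAM- replicates 1 to 4. These were the highest counts of the 9 genes in every library, and the fractions did not overlap in CPM, with a gap of 1.16 times. The means were 1104 ± 98.4 CPM and 822 ± 49.2 CPM (SD, n = 4 each), and the log2 fold change was 0.42 (SE 0.09, edgeR adjusted p = 0.00292). Tested against a 1.5-fold change in place of no change, *Hlf*, *Mecom*, *Meis1* and *Prdm16* passed, while *Erg* (adjusted p = 0.118) and *Lmo2* (adjusted p = 1) did not. Over all genes tested, 5.88% were higher by that test.

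**Figure D2:**
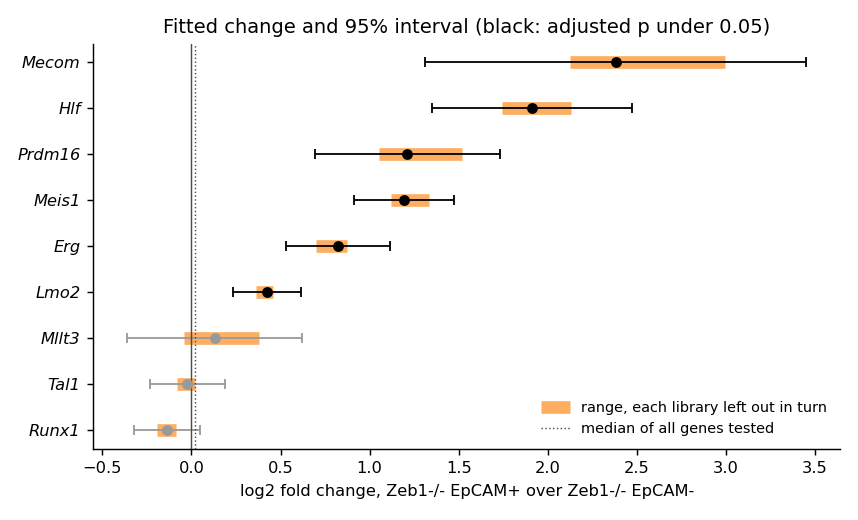
Fitted log2 fold change of each gene (*Zeb1*-/- EpCAM+ over *Zeb1*-/- EpCAM-, x axis) with its 95% interval, black where the adjusted p passed and gray where it did not, and in orange the range of the estimate over fits that each lack 1 library. The intervals of the 6 genes that rose lie to the right of 0, from *Mecom* at 2.38 to *Lmo2* at 0.42, and those of *Mllt3*, *Tal1* and *Runx1* include 0.

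The 3 other genes did not pass. *Tal1* (ENSMUSG00000028717, chromosome 4, 115056426 to 115071755, plus strand), the basic helix-loop-helix factor that specifies blood, was counted 533, 665, 555 and 482 times in *Zeb1*-/- EpCAM+ replicates 1 to 4 and 523, 439, 501 and 514 times in *Zeb1*-/- EpCAM- replicates 1 to 4, with means of 33.7 ± 3.19 and 34.3 ± 2.47 CPM (SD, n = 4 each). Its log2 fold change was -0.02 (95% interval -0.23 to 0.19, edgeR adjusted p = 0.858), and its sign turned with upper-quartile scaling and with library totals (0.06 in both). *Runx1* (ENSMUSG00000022952, chromosome 16, 92601466 to 92826149, minus strand), the Runt-domain factor of the endothelial-to-hematopoietic transition, was counted 970, 1125, 1322 and 1002 times in *Zeb1*-/- EpCAM+ and 1189, 952, 1191 and 906 times in *Zeb1*-/- EpCAM- replicates 1 to 4. Its means were 66.5 ± 4.96 and 73.2 ± 6.25 CPM (SD, n = 4 each), with a log2 fold change of -0.14 (95% interval -0.32 to 0.05, adjusted p = 0.211).

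*Mllt3* (ENSMUSG00000028496, chromosome 4, 87769925 to 88033364, minus strand) was counted 595, 657, 656 and 540 times in *Zeb1*-/- EpCAM+ replicates 1 to 4 and 467, 288, 505 and 683 times in *Zeb1*-/- EpCAM- replicates 1 to 4. The *Zeb1*-/- EpCAM+ libraries lay close together (35.02 to 38.9 CPM) inside the wide range of the *Zeb1*-/- EpCAM- libraries (21.3 to 50.2 CPM), where replicate 4, the lowest for 6 of the other genes, was the highest. The coefficients of variation were 4.34% and 36.2%. The log2 fold change was 0.13 (95% interval -0.36 to 0.62, adjusted p = 0.657), and it turned to -0.04 without *Zeb1*-/- EpCAM- replicate 2. Without *Zeb1*-/- EpCAM- replicate 4 it was 0.38 and came near the threshold (edgeR adjusted p = 0.0589). Relative to *Mllt1* (ENL), its paralog, *Mllt3* had a log2 ratio of 0.03 ± 0.13 and -0.40 ± 0.42 (SD, n = 4 each), with a difference that missed the threshold (0.43, exact permutation p = 0.114, adjusted p = 0.131).

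The log2 ratio of *Tal1* to *Lmo2*, whose products sit in 1 complex, was -4.99 ± 0.23 in *Zeb1*-/- EpCAM+ and -4.55 ± 0.18 in *Zeb1*-/- EpCAM- (SD, n = 4 each), a difference of -0.45 without overlap (exact permutation p = 0.0286, adjusted p = 0.0457). For *Runx1* over *Cbfb*, the partner that stabilizes RUNX proteins on DNA, it was -1.92 ± 0.09 and -1.51 ± 0.11, a difference of -0.41, also without overlap (exact permutation p = 0.0286, adjusted p = 0.0457). The ratio of *Tal1* to its paralog *Lyl1* did not pass (1.09 ± 0.08 and 1.43 ± 0.40, difference -0.34, exact permutation p = 0.229), and its *Zeb1*-/- EpCAM- values fell between 1.10 and 1.90. These ratios compare fractions and not genes, since gene lengths differ. Of the 8 pairs compared, 5 passed with adjusted p = 0.0457, each at the smallest exact p that 4 libraries against 4 allow. The adjusted value is shared by these pairs and depends on how many of the 8 reach this smallest p. Among single genes tested, 20.1% were higher and 20% lower without overlap, and the share of gene pairs without overlap was not computed. Within all 4 replicate numbers the difference had the same direction for each of these 5 pairs, where a sign-flip test of 4 numbers allows no p under 0.125.

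**Figure D3:**
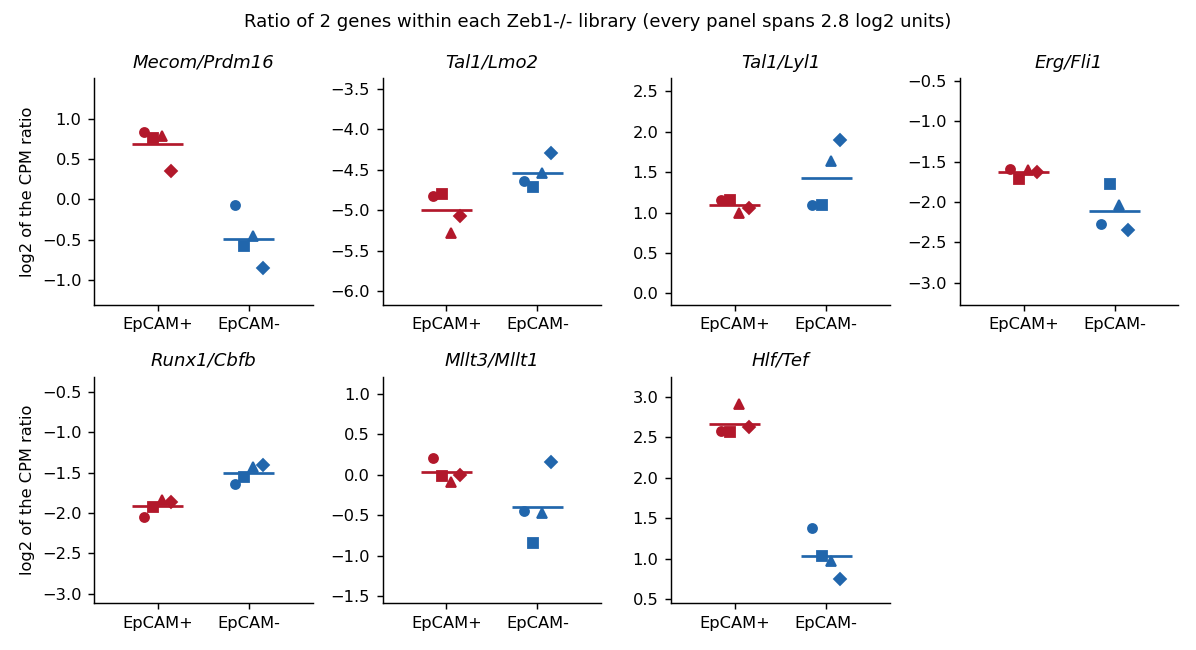
Log2 ratio of the CPM of 2 genes within each library (1 CPM added to each gene), with *Zeb1*-/- EpCAM+ in red, *Zeb1*-/- EpCAM- in blue, bars at the mean of 4 libraries, circles, squares, triangles and diamonds for replicates 1 to 4, and panels of equal height on the log2 scale. The colors are apart for *Mecom/Prdm16*, *Tal1/Lmo2*, *Erg/Fli1*, *Runx1/Cbfb* and *Hlf/Tef*, with differences from -0.45 to 1.64, and overlap in the other panels.

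The order of the 9 genes by level per length differed between the fractions. In CPM per kb of the gene's length in the table, *Lmo2* led in both (510 ± 45.4 in *Zeb1*-/- EpCAM+ and 380 ± 22.7 in *Zeb1*-/- EpCAM-, SD, n = 4 each), followed by *Meis1* (23.5 ± 2.31 and 10.3 ± 2.02). *Hlf* came next in *Zeb1*-/- EpCAM+ (18.5 ± 4.07), where its range overlapped that of *Meis1*, and stood below *Tal1*, *Runx1* and *Erg* in *Zeb1*-/- EpCAM- (4.91 ± 1.57), where its range overlapped those of *Runx1* (6.08 ± 0.52), *Erg* (5.59 ± 0.98) and *Mllt3* (2.82 ± 1.02). *Erg* (9.91 ± 0.96), *Tal1* (7.70 ± 0.73), *Runx1* (5.53 ± 0.41) and *Mllt3* (3.08 ± 0.13) followed in *Zeb1*-/- EpCAM+, each apart from the next. *Tal1* (7.83 ± 0.56) and *Runx1* were apart in *Zeb1*-/- EpCAM-, while the ranges of *Runx1* and *Erg* overlapped. *Mecom* (2.29 ± 0.55 and 0.433 ± 0.31) and *Prdm16* (1.82 ± 0.20 and 0.782 ± 0.32) were the lowest in both fractions and overlapped in each. The deposited FPKM rest on gene lengths 1.52 to 5.0 times shorter than the length column and change the order: *Lmo2* and *Meis1* still led, *Mecom* and *Prdm16* were still last, and *Runx1* stood above *Erg* and *Tal1* in both fractions. By mean FPKM *Hlf* was above *Tal1* and *Erg* in *Zeb1*-/- EpCAM- too (15.3 ± 5.32 against 11.6 ± 0.68 and 8.98 ± 1.67), and the only one of these 3 genes that it passed between the fractions was *Runx1* (24.9 ± 2.48 in *Zeb1*-/- EpCAM- and 23.9 ± 2.20 in *Zeb1*-/- EpCAM+, where *Hlf* reached 60.7 ± 14.5).

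**Figure D4:**
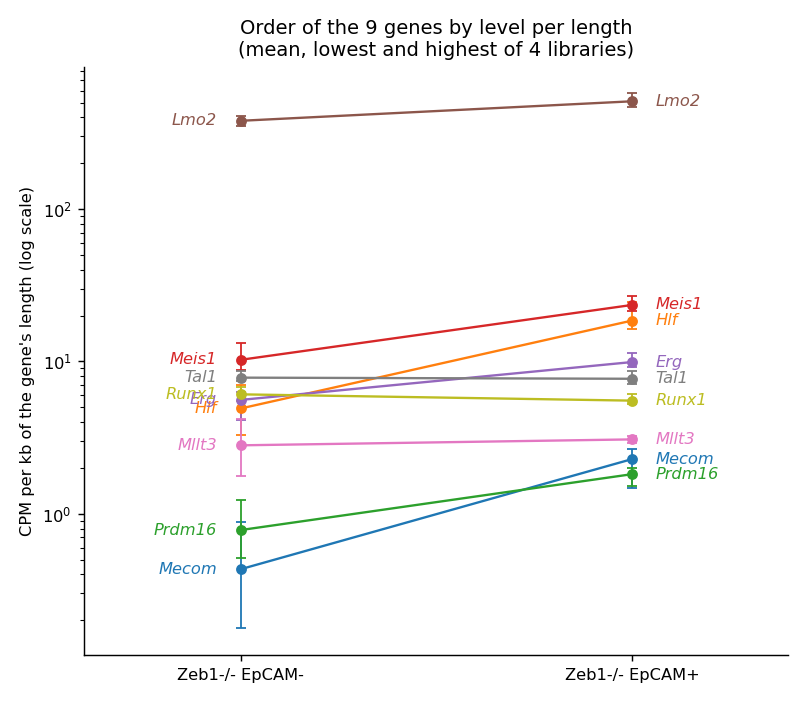
Level of each gene per kb of its length (CPM per kb, log scale) in *Zeb1*-/- EpCAM- and *Zeb1*-/- EpCAM+ HSPCs, with the mean of 4 libraries as a point and the lowest and highest library as bars. *Hlf* climbs from 4.91 to 18.5 past *Tal1*, *Runx1* and *Erg* (by FPKM past *Runx1* alone), and the lines of *Tal1*, *Runx1* and *Mllt3* stay nearly level.

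The libraries of a fraction did not vary gene by gene alone. *Zeb1*-/- EpCAM+ replicate 3 was the highest of its fraction for 7 of the 9 genes, *Zeb1*-/- EpCAM- replicate 4 the lowest of its fraction for 6, and *Zeb1*-/- EpCAM- replicate 1 the highest for 4 (*Hlf*, *Mecom*, *Meis1* and *Prdm16*). Taken within a replicate number, the log2 ratio of *Zeb1*-/- EpCAM+ to *Zeb1*-/- EpCAM- was lowest in number 1 for these 4 genes, at 1.22 for *Hlf*, 1.58 for *Mecom*, 0.83 for *Meis1* and 0.64 for *Prdm16*, and reached 2.33, 3.06, 1.43 and 1.68 in another number. *Erg* (0.56 to 1.18) and *Lmo2* (0.28 to 0.61) were higher in *Zeb1*-/- EpCAM+ within all 4 numbers, and *Runx1* was lower within all 4 (-0.23 to -0.04). *Tal1* (-0.27 to 0.22) and *Mllt3* (-0.52 to 0.81) had both signs. In the 8 fits that each lack 1 library, the 6 genes passed every time, with log2 fold changes of 2.12 to 3.00 for *Mecom*, 1.74 to 2.13 for *Hlf*, 1.05 to 1.52 for *Prdm16*, 1.12 to 1.34 for *Meis1*, 0.70 to 0.87 for *Erg* and 0.36 to 0.46 for *Lmo2*.

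Stem cell and lineage markers differed between the same libraries. The 6 HSC markers (*Procr*, *Slamf1*, *Fgd5*, *Hoxb5*, *Ctnnal1* and *Tek*) were all higher in *Zeb1*-/- EpCAM+, with summed levels of 91.9 to 134 CPM against 32.04 to 55.2 CPM. For this sum too, *Zeb1*-/- EpCAM- replicate 1 was the highest of its fraction, while in *Zeb1*-/- EpCAM+ replicate 2 was the highest and replicate 4 the lowest. *Slamf1* overlapped between the fractions, at 12.02 to 18.48 CPM in *Zeb1*-/- EpCAM+ and 5.697 to 14.64 CPM in *Zeb1*-/- EpCAM-. *Hoxb5* had few reads, with counts of 21, 0, 7 and 6 in *Zeb1*-/- EpCAM- replicates 1 to 4. Neutrophil precursor genes summed to 960 to 1765 CPM in *Zeb1*-/- EpCAM+ and to 11790 to 18410 CPM in *Zeb1*-/- EpCAM-, with 4 of 6 lower, among them *Mpo* (566 to 1175 against 8739 to 12210 CPM). Erythroid genes summed to 92.2 to 273 and 2002 to 6836 CPM (5 of 6 lower, 1 higher), and mast cell and basophil genes to 69.2 to 92.4 and 237 to 497 CPM (4 of 6 lower). Plasma cell genes summed to 385 to 3961 CPM in *Zeb1*-/- EpCAM+, highest in replicate 1, and to 169 to 256 CPM in *Zeb1*-/- EpCAM- (2 of 4 tested higher). Of these, *Jchain* stood at 199 to 3525 CPM in *Zeb1*-/- EpCAM+ and at 0 to 0.273 CPM in *Zeb1*-/- EpCAM-. *Xbp1*, nearly all of the *Zeb1*-/- EpCAM- sum, stood at 172 to 346.9 and 166.6 to 249.4 CPM (log2 fold change 0.08, edgeR adjusted p = 0.792). Dendritic cell genes summed to 122 to 346 and 115 to 136 CPM (5 of 7 tested higher), monocyte and macrophage genes to 33.1 to 313 and 144 to 776 CPM (2 of 4 lower), megakaryocyte genes to 129 to 367 and 83.5 to 286 CPM (1 of 5 higher), B cell genes to 71.8 to 121 and 46.3 to 78.8 CPM (1 of 3 higher, *Pax5* at 0 in both fractions), and T and NK cell genes to 683 to 850 and 701 to 910 CPM (1 of 2 higher, *Cd3e* at 0 in *Zeb1*-/- EpCAM-). Single genes made up much of some sums. *Procr*, of the HSC list, stood at 40.85 to 82.11 CPM in *Zeb1*-/- EpCAM+. In *Zeb1*-/- EpCAM-, *Car1*, of the erythroid list, stood at 1599 to 5956 CPM. *Cd79b*, of the B cell list, stood at 44.2 to 76.21 CPM in the same fraction. *Nkg7*, of the T and NK cell list, stood at 630.5 to 793.5 CPM in *Zeb1*-/- EpCAM+ and 684.1 to 883.3 CPM in *Zeb1*-/- EpCAM-. *Cd3d* reached at most 0.6706 CPM and *Cd3g* at most 0.6485 CPM in any library. *Bst2*, of the dendritic cell list, stood at 104.2 to 117.5 and 96.06 to 129.3 CPM. The part of these cell types in the differences of the 9 regulators was not tested.

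**Figure D5:**
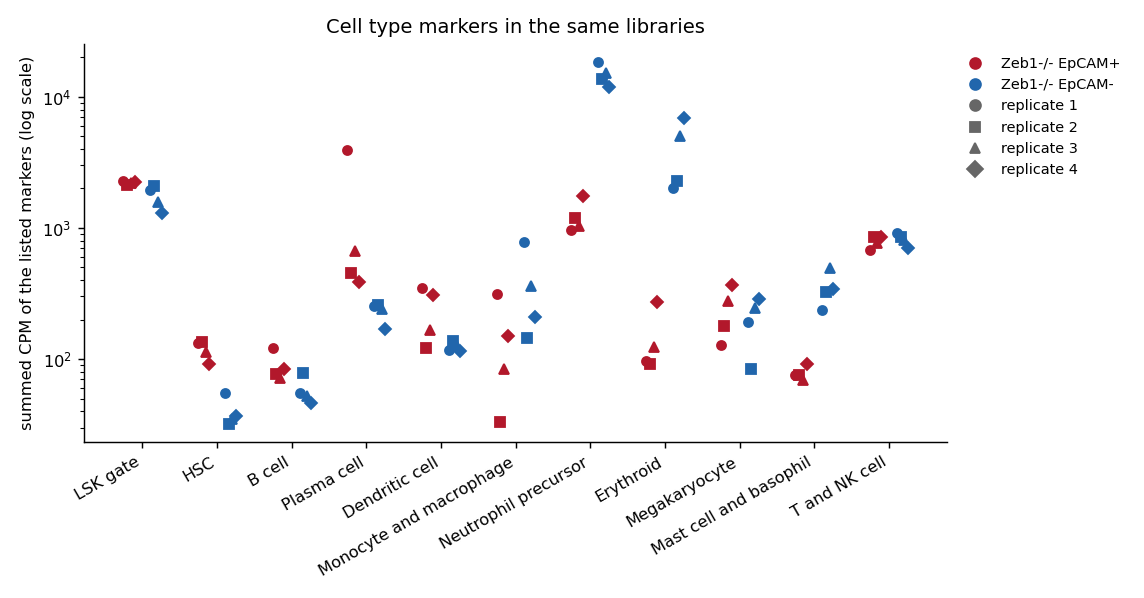
Summed CPM of each list of cell type markers in each library on a log scale, with *Zeb1*-/- EpCAM+ in red and *Zeb1*-/- EpCAM- in blue and symbols for the replicate numbers. HSC markers sum to 91.9 to 134 CPM in red and 32.04 to 55.2 CPM in blue, and neutrophil precursor and erythroid markers are higher in every blue library than in any red one.

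Of 13 tested partners of TAL1 and LMO2, 2 rose and 4 fell, beside 21.6% higher and 20.8% lower among all genes tested, with a median log2 fold change of -0.01 that was 0.08 with upper-quartile factors and 0.07 with library totals. *Gata1*, the erythroid GATA factor of the complex, was lower at 42.1 ± 8.10 against 178 ± 73.1 CPM (log2 fold change -2.08, adjusted p = 0.00219). Also lower was *Tcf3*, which encodes the E protein that dimerizes with TAL1 (-0.51, adjusted p = 0.0048). The other genes that fell were the LIM-only relatives of *Lmo2*, *Lmo4* (-0.70, adjusted p = 0.00113) and *Lmo1* (-0.79, adjusted p = 0.0328). The corepressor gene *Cbfa2t3* (ETO2) was higher (0.56, adjusted p = 0.0118), as was *Ldb1*, whose product ties the complex into dimers (0.20, adjusted p = 0.044, 0.0528 with DESeq2 size factors). With upper-quartile factors *Lmo1* did not pass (adjusted p = 0.0526). Of the heptad genes beside the 9, *Fli1* rose, while *Gata2* (0.28, adjusted p = 0.088, 0.03 with upper-quartile factors) and *Lyl1* (0.32, adjusted p = 0.127) did not pass. Without *Zeb1*-/- EpCAM+ replicate 3, or *Zeb1*-/- EpCAM- replicate 2 or 4, none of these 3 passed, and 2 passed without *Zeb1*-/- EpCAM- replicate 3.

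Relatives of *Runx1* and *Erg* were among the genes that rose. *Runx2* was higher at 47.3 ± 5.70 against 30.5 ± 6.95 CPM (SD, n = 4 each, log2 fold change 0.64, adjusted p = 0.00777), *Cbfb* at 254 ± 14.6 against 211 ± 24.1 CPM (0.27, adjusted p = 0.0307), and *Runx3* had a log2 fold change of 0.07 (adjusted p = 0.569). Of these 3 genes, 1 passed instead of 2 without *Zeb1*-/- EpCAM+ replicate 1 or 3 or *Zeb1*-/- EpCAM- replicate 2, 3 or 4. Of 15 tested ETS genes, 7 rose and 1 fell, beside 21.6% higher and 20.8% lower among all genes tested, and their median was 0.36. *Ets1* (1.11, adjusted p = 0.000698), *Etv3* (0.88, adjusted p = 0.000644), *Elk3* (0.59, adjusted p = 0.00296) and *Etv6*, which adult HSCs require (0.36, adjusted p = 0.00483), led by adjusted p, and *Gabpa* was the gene that fell (-0.31, adjusted p = 0.0363, 0.107 with upper-quartile factors). Without *Zeb1*-/- EpCAM+ replicate 1 or 3, 5 and 4 of the 15 passed.

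Of 14 tested genes for elongation and DOT1L partners of MLLT3, 2 were higher (*Kmt2a*, which encodes MLL1, 0.49, adjusted p = 0.012, and *Mllt6*, 0.68, adjusted p = 0.0246) and 2 lower (*Ell2*, -0.94, adjusted p = 0.0135, and *Cdk9*, the kinase of P-TEFb, -0.22, adjusted p = 0.0211, 0.122 with upper-quartile factors), with a median of 0.01. Among all genes tested, 21.6% were higher and 20.8% lower. *Mllt1* had a log2 fold change of -0.25 and missed the threshold (adjusted p = 0.0532), and it passed with the replicate number as a block (adjusted p = 0.0262), where 8 of the 14 genes passed, 5 of them higher and 3 lower, while 2 passed without *Zeb1*-/- EpCAM+ replicate 3 or without *Zeb1*-/- EpCAM- replicate 3. *Dot1l* stood at 0.25 (adjusted p = 0.06003, 0.0359 with the block and 0.017 with upper-quartile factors). Of 15 tested PRDM genes and corepressors, 0 were higher (2 at an unadjusted p under 0.05, 0 with DESeq2 or limma, 1 with upper-quartile factors), and 2 were lower: the H3K9 methyltransferase gene *Suv39h1* (-0.54, adjusted p = 0.000374) and the deacetylase gene *Hdac2* (-0.37, adjusted p = 0.00168), with a median of 0.02. *Ctbp1*, a corepressor bound by MECOM and by ZEB1, stood at -0.20 (adjusted p = 0.052, 0.0127 with the block) and *Setdb1* at -0.22 (adjusted p = 0.0542, 0.0396 with the block), and with the block 5 of the 15 passed. Without *Zeb1*-/- EpCAM- replicate 1 or 2, 4 passed.

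Of 24 tested genes on a list of other regulators of stem cell maintenance, 13 rose and 3 fell, beside 21.6% higher and 20.8% lower among all genes tested. The median log2 fold change was 0.56. Among the 13, *Etv6* and *Hoxa9* were also counted above, with the ETS genes and with the TALE and Hoxa genes. *Gata3*, a T cell factor gene that HSCs also express, rose from 6.31 ± 1.501 to 22.1 ± 0.96 CPM (SD, n = 4 each, 1.80, adjusted p = 9.6e-05), and *Msi2*, the RNA-binding protein gene that maintains HSCs, from 17.1 ± 2.56 to 36.1 ± 4.05 CPM (1.08, adjusted p = 0.00016). *Tcf15*, which marks quiescent HSCs, rose from 2.31 ± 1.06 to 8.48 ± 1.89 CPM (1.86, adjusted p = 0.000727). The 3 that fell were *Cebpa* (-1.38, adjusted p = 0.00026) and *Gfi1b* (-0.89, adjusted p = 0.00591), which drive myeloid and erythroid or megakaryocytic fates, and *Myb* (-0.35, adjusted p = 0.00601), which progenitors need to proliferate. Of 8 genes reported as direct targets of the heptad or of the other regulators, 4 were higher (*Nfe2* 0.39, *Hhex* 0.28, *Kit* 0.45 and *Flt3* 0.88) and *Gfi1b* was lower. *Flt3*, the receptor gene of lymphoid-primed progenitors, went from adjusted p = 0.0149 to 0.108 with the replicate number as a block.

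The genes whose log2 CPM over the 8 libraries followed each regulator most closely were *Maged2* for *Mecom* (Pearson r = 0.998), *Bin2* for *Hlf* (0.997), *Hdgfl3* for *Meis1* (0.996), *Ddx58* for *Prdm16* (0.996), *AC149090.1* for *Erg* (0.993) and *Paip2* for *Lmo2* (0.989). For the 3 genes that did not pass they were *Htt* for *Tal1* (0.978), *Sc5d* for *Mllt3* (0.977) and *Ywhag* for *Runx1* (0.964). These are descriptions over 8 libraries that share the difference between the fractions, each the highest of all protein-coding genes tested.

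Reads of a few neighbors could bear on these counts, since the strand setting of the counting is not stated. Exons of *Mecom* share 81 bases with the antisense gene *Mecomos* (0 to 20 counts in a library), those of *Meis1* share 1029 bases with *Gm37818* (4 to 33 counts) and 896 with the antisense gene *Gm16140* (10 to 65 counts), those of *Prdm16* 109 with *B230104I21Rik* (0 to 1 count) and those of *Runx1* 106 with the antisense gene *Gm26626* (0 to 5 counts). No gene of the table shared exon bases with *Hlf*, *Mllt3*, *Erg*, *Lmo2* or *Tal1*.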

How the data were processed

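RNA from LSK cells was amplified with SMART-Seq v4 and sequenced as paired ends. Per the submitters' processing notes, the authors used GRCm38.p6, STAR 2.6.1d, featureCounts 1.5.0-p3 and DESeq2 1.20.0. They deposited 1 table of whole-number read counts per gene, without normalization, which all tests here use, and of FPKM (fragments scaled by the authors to gene length and library depth), which served as an alternative for the order of levels. The strand setting and the treatment of reads that map to several genes are not given in the sources used here. Fold changes and p-values in the table are the authors' own comparisons (of the fractions, and of 4 pairs of single libraries) and were not used.

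Counts were filtered with filterByExpr, scaled by TMM and tested with edgeR 4.0.16 (robust quasi-likelihood test, two-sided, R 4.3.3), with Benjamini-Hochberg adjustment over all 13560 genes and a threshold of 0.05. SE came from the fold change and the F statistic, and 95% intervals from the fit's degrees of freedom. CPM used the scaled library size. Ratios of genes used log2(CPM + 1) and exact permutation tests, computed with Python 3.11.15. Library totals were 14114491 to 17073546 reads. Without molecular identifiers, counting error is a lower bound on the error of a count. The procedure was also run on simulated counts with 200 genes changed 2-fold. In the data 5745 genes passed, so this run cannot judge the scaling where so many genes differ.

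The 9 genes, the 10 lists of partners, families and targets and the 11 marker lists were chosen with earlier results of these data known. All 9 genes are named, with every gene of the ratio pairs, lists of 4 genes or fewer in full, up to 4 genes per list with the smallest adjusted p, and the most similar protein-coding gene. Further genes behind a count of 5 or fewer were named after their values were seen. Exon overlaps came from GENCODE release M21. Not reported here are a few listed genes and 1 of the 8 ratio pairs, which stayed in the adjustment.

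Libraries of both fractions carry the same replicate numbers. After the mean of each fraction was subtracted, the 4 pairs of libraries that share a number correlated across genes at 0.205 to 0.356 and the 12 other pairs at -0.216 to 0.0396, although the labels do not say what a number shares. Alternatives were DESeq2 1.42.0, limma 3.58.1 (limma-trend), 3 other scalings, 2 other filters, a block for the replicate number, fits without 1 library, protein-coding genes alone, a 1.5-fold change as the null, other pseudocounts and FPKM.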

Additional observations from a re-analysis of the deposited data

Results flagged for a closer look

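Values were flagged where the highest or lowest of 4 libraries lay far from the others, measured as its gap to the nearest library divided by the range of the fraction, by Dixon's critical value for 4 samples. Of 46 groups of 4 libraries examined, 4 passed, where chance flags about 1 in 20.

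*Hlf* stood at 164 CPM in *Zeb1*-/- EpCAM+ replicate 3, against 109, 110 and 112 CPM in the other 3 libraries (gap 0.938 of the range). *Runx1* was highest in the same library, at 73.9 CPM against 63.4, 63.8 and 65.0 CPM (gap 0.851 of the range). *Erg* was lowest in *Zeb1*-/- EpCAM- replicate 4, at 14.3 CPM against 20.6, 20.8 and 21.8 CPM (gap 0.844 of the range). The log2 ratio of *Mecom* to *Prdm16* was lowest in *Zeb1*-/- EpCAM+ replicate 4, at 0.35 against 0.76, 0.79 and 0.84 (gap 0.832 of the range). *Hlf* and *Erg* passed the test of the fractions with each library left out, and *Runx1* did not pass in any of these fits.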

How the results depend on the processing

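Of the 9 genes, the same 6 passed in every alternative but the test of a change over 1.5-fold, where *Erg* (log2 fold change 0.82, adjusted p = 0.118) and *Lmo2* (0.42, adjusted p = 1) did not and 4 genes were left. Over 18 alternatives the log2 fold changes ranged from 2.12 to 3.00 for *Mecom*, 1.74 to 2.13 for *Hlf*, 1.05 to 1.52 for *Prdm16*, 1.12 to 1.34 for *Meis1*, 0.70 to 0.91 for *Erg*, 0.36 to 0.51 for *Lmo2* and -0.19 to -0.05 for *Runx1*. *Tal1*, at -0.02, turned to 0.0624 with upper-quartile factors, to 0.0618 with library totals and to 0.0017 with at least 10 counts in every library, and ranged from -0.0835 to 0.0197 with a library left out (0.0127 without *Zeb1*-/- EpCAM+ replicate 3, 0.0067 without replicate 4 and the highest value without *Zeb1*-/- EpCAM- replicate 4). *Mllt3* ranged from -0.04 to 0.38, the lowest without *Zeb1*-/- EpCAM- replicate 2 (-0.0445) and the highest without *Zeb1*-/- EpCAM- replicate 4 (edgeR adjusted p = 0.0589). It passed in none of these fits, and the causes of these sign changes were not tested.

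The counts of partner and family genes that passed moved by more than 1.5 times as follows. In the test of a change over 1.5-fold, which is stricter by construction, 0 of the other heptad genes, 1 partner of *Tal1* and *Lmo2*, 0 Runx or Cbfb genes, 1 ETS gene, 0 partners of *Mllt3*, 0 PRDM genes or corepressors, 5 other regulators of stem cells and 0 target genes passed. With upper-quartile factors 2 heptad genes and 1 PAR bZIP gene passed, and with library totals 2 heptad genes. DESeq2 and the fit to protein-coding genes alone each gave 4 PRDM genes or corepressors. With a library left out, 0 to 2 heptad genes, 1 to 2 Runx or Cbfb genes, 4 to 10 ETS genes, 2 to 6 partners of *Mllt3*, 2 to 4 PRDM genes or corepressors and 0 to 1 PAR bZIP genes passed, the last without *Zeb1*-/- EpCAM+ replicate 4.

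With the replicate number as a block, 6847 of all genes passed instead of 5745, and so did 6 TALE or Hoxa genes, 8 partners of *Mllt3*, 5 PRDM genes or corepressors and 1 PAR bZIP gene, while no call of the 9 genes changed. Besides *Flt3*, *Pbx4*, *Mllt1*, *Dot1l*, *Ctbp1*, *Setdb1* and *Dbp*, it changed no other call of a gene named above. By FPKM, 5 of the 9 genes kept their rank by level per length in *Zeb1*-/- EpCAM+ and 2 in *Zeb1*-/- EpCAM-. With a library left out, 3 against 4 allows no exact p under 0.0571 for a ratio. Depth limits *Mecom* most, with 30 to 175 counts in *Zeb1*-/- EpCAM- libraries.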
